A study of Homo sapiens with 12 samples.

Results

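The measurement described here is how far the triple knockdown of the SAFB family departed from what its single knockdowns add up to. For each gene, the log2 change of triple KD against control was set against the added log2 changes of SAFB1 KD and SLTM KD, so the departure is triple KD minus SAFB1 KD minus SLTM KD plus control on the log2 scale. A departure above 0 means that triple KD was higher than the sum, and a departure below 0 that it was lower. The members are the genes whose departure passed edgeR's quasi-likelihood test at an adjusted p under 0.05. They numbered 5713 of 26688 genes tested (21.4%), with all 12 libraries of the series in the fit.

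The cells were Flp-In T-REx HEK293, an embryonic kidney line, transfected with siRNAs and harvested on the second day for sequencing of polyadenylated RNA. Triple KD cells received the siRNAs against SAFB (the gene of SAFB1), SAFB2 and SLTM together, SAFB1 KD cells that against SAFB, SLTM KD cells that against SLTM, and control cells a negative control siRNA, with 3 libraries in each group. According to the methods, negative control siRNA brought each single knockdown to the amount of siRNA used in triple KD, and no amount is given for control. The SAFB2 siRNA was thus present in triple KD only, and libraries with SAFB2 alone knocked down were not analysed here. The effect of the SAFB2 siRNA itself, on its target or elsewhere, therefore stands in every departure and cannot be told apart from a departure of combined loss. All groups share the parental line and the transfection, and the knockdowns lower rather than remove their targets. Library totals ran from 56856228 to 75533510 counts, and levels are given in CPM (counts per 1000000 after scaling for library size and composition). Nothing in the labels ties the replicates to separate cell stocks, so p-values measure the spread between these libraries.

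SAFB1, SAFB2 and SLTM are related nuclear proteins with an RNA recognition motif and a SAP domain. They bind purine-rich RNA, and much of that RNA is intronic, where they keep sequences inside introns from being used as exons or polyadenylated ends. Processed pseudogenes and retrogenes, which are intronless copies of spliced mRNAs, and transposable elements are among the sequences that lie within introns. Paralogs that share targets can cover for each other, which is why the sum of single losses is a natural yardstick for a combined loss.

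The 3 siRNAs are shown because they define what the groups share and what they do not. The sense strand is given 5′ to 3′, and the capitals mark the 7 bases that pair with the seed of the guide strand, its bases 2 to 8.
SAFB siRNA: ggaccaagaugAUCAGAAatt
SAFB2 siRNA: ggacggucgugAUGGAUAatt
SLTM siRNA: gcauuagaauaAUUCGUGatt
Each 19-base core matched the transcripts of 1 gene in the GRCh38 annotation, in the coding sequence. The sites were chr19:5654145-5654163 (plus strand, exon 12 of SAFB), chr19:5598848-5598866 (minus strand, exon 13 of SAFB2) and chr15:58890402-58890420 (minus strand, exon 15 of SLTM). The best alignment of the SAFB siRNA to SAFB2 had 4 mismatches, and that of the SAFB2 siRNA to SAFB had 3.

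SAFB2 had the lowest departure of all genes with a symbol and at least 1 CPM in a group. It stood at 28.2, 28.7 and 30.4 CPM in triple KD, against 207, 206 and 213 CPM in SAFB1 KD, 138, 138 and 142 CPM in SLTM KD and 125, 125 and 129 CPM in control. Both single knockdowns raised SAFB2, so the sum would put triple KD at 231 CPM, and the departure was -2.99 ± 0.0371 (SE; adjusted p = 1.44e-57). SLTM was at 22.6, 25.8 and 26.6 CPM in triple KD, against 135, 139 and 141 CPM in SAFB1 KD, 19.6, 19.3 and 22.7 CPM in SLTM KD and 114, 117 and 116 CPM in control. The log2 sum put triple KD at 24.6 CPM, and the departure of 0.03 ± 0.0543 did not pass (adjusted p = 0.775). With the changes summed in CPM, SLTM was called lower instead (-0.24 in units of its mean level, adjusted p = 1.39e-08). SAFB was at 36.9, 37.9 and 39.96 CPM in triple KD, against 45.6, 44.3 and 46.1 CPM in SAFB1 KD, 232, 233 and 241 CPM in SLTM KD and 231, 235 and 230.5 CPM in control. The triple KD libraries lay below all 3 SAFB1 KD libraries, and the departure was -0.26 ± 0.0376 (adjusted p = 7.14e-08). SAFB and SAFB2 overlap at their starts on opposite strands (chr19:5623035-5668478 and chr19:5586999-5624046), so their counts rest on strand.

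Over the whole transcriptome, departures were frequent and mostly small. Of the 26688 genes, 2529 were called higher than the sum (9.48%) and 3184 lower (11.9%). The median absolute departure of called genes was 0.25 on the log2 scale, 1187 of them exceeded 0.5 and 402 exceeded 1 (235 higher, 167 lower). The median over all genes was 0.00229, which the scaling of the libraries sets near 0. Tested against a 2-fold departure, 16 genes were higher (0.06%) and 19 lower (0.0712%). Calls followed the level of the gene, with 0.906% of genes called below 0.1 CPM, 22.1% between 1 and 10 CPM, 43.3% between 10 and 100 CPM and 48.8% at 100 CPM or more. Genes of low level are therefore under-represented among the calls at this depth. In 4739 of the called genes (83.0%) all 3 triple KD libraries lay beyond all 9 others in the direction of the departure, as in 7505 of all genes tested (28.1%), a description of the same values that gave the calls. For 1985 genes called higher and 2685 called lower, 81.7% of all calls, triple KD also differed from each of the other 3 groups in that direction. These comparisons use the same libraries as the calls and are no separate support for them.

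**Figure D1:**
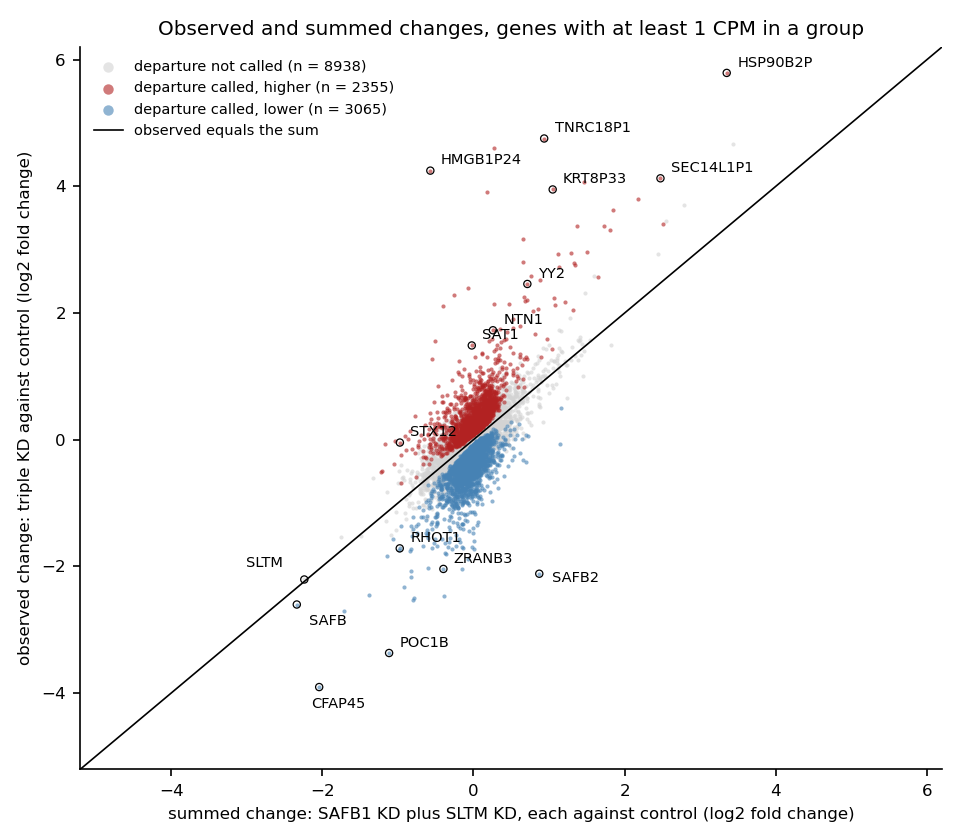
Change of triple KD against control (y axis, log2 fold change) plotted against the added changes of SAFB1 KD and SLTM KD (x axis, log2 fold change) for genes averaging 1 CPM or more in a group, coloured by the call of the departure; the line marks equality and circles mark named genes. SAFB and SLTM lie near the line at summed changes of -2.34 and -2.24, while SAFB2 lies far below it and HSP90B2P, HMGB1P24 and NTN1 above it.

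The departing genes were then sorted by what the single knockdowns did to them. Triple KD against control called 10765 genes (40.3%), SAFB1 KD 2577 (9.66%) and SLTM KD 2471 (9.26%), and 4930 of the genes called in triple KD had a called departure. Neither single knockdown was called for 3595 of the 5713 departing genes (62.9%), SAFB1 KD alone was called for 984, SLTM KD alone for 840 and both for 294. Among all genes tested, neither single knockdown was called for 22206, and 16.2% of these departed. Of the 4482 tested genes with at least 1 single knockdown called, 47.3% departed. Departure calls rose with the level of the gene, as given above, and the calls share libraries. These shares were not matched for level, and the difference between them was not tested. Of the 2118 departing genes with at least 1 single knockdown called, triple KD went beyond the sum in the direction of the sum in 1393 (65.8%), fell short of it in 239 (11.3%) and went against it in 486 (22.9%). Among the 444 genes called higher that SLTM KD alone had changed, 156 were beyond the sum, 105 short of it and 183 against it, whereas for the 460 that SAFB1 KD alone had changed the counts were 364, 35 and 61. Among genes called lower the splits were closer, with 275, 25 and 96 for SLTM KD alone and 383, 39 and 102 for SAFB1 KD alone. The difference between these splits was not tested. The single knockdown libraries enter the sum and, with the opposite sign, the departure, so an error in them moves both in opposite directions. In 783 genes the departure was called although triple KD was not against control.

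Several abundant transcripts rose in triple KD and stayed near control in both single knockdowns. SAT1, an acetyltransferase of polyamine catabolism (chrX:23783173-23786210), was at 238, 258 and 259 CPM in triple KD, against 86.5, 86.8 and 93.7 CPM in SAFB1 KD, 85.7, 88.8 and 92.8 CPM in SLTM KD and 87.9, 89.1 and 92.0 CPM in control. The 9 libraries of the other groups overlapped each other and none came near triple KD, and the departure was 1.51 ± 0.0410 (adjusted p = 9.82e-39). NTN1, the axon guidance ligand netrin-1 (chr17:9021510-9244000), was at 112, 107 and 108 CPM in triple KD, against 35.6, 35.3 and 36.1 CPM in SAFB1 KD, 34.9, 36.7 and 36.9 CPM in SLTM KD and 33.0, 31.7 and 33.9 CPM in control. Each single knockdown raised it slightly (log2 fold changes of 0.12 and 0.14, both called), the sum would put triple KD at 39.3 CPM, and the departure was 1.47 ± 0.0457 (adjusted p = 1.33e-35). DNMT3B, a de novo DNA methyltransferase (chr20:32762385-32809359), was at 51.4, 51.3 and 50.6 CPM in triple KD, against 18.8, 18.4 and 19.1 CPM in SAFB1 KD, 17.9, 19.3 and 17.9 CPM in SLTM KD and 17.97, 16.9 and 17.1 CPM in control (departure 1.36 ± 0.0576, adjusted p = 1e-28). Neither single knockdown changed DNMT3B by the test.

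TOMM20, a receptor of the mitochondrial outer membrane import machinery, averaged 496 CPM in triple KD, 244 CPM in SAFB1 KD, 230.0 CPM in SLTM KD and 242 CPM in control (departure 1.10 ± 0.0288). RBPJ, the DNA-binding factor of Notch signalling, averaged 86.0 CPM in triple KD, 35.5 CPM in SAFB1 KD, 34.98 CPM in SLTM KD and 34.97 CPM in control (1.27 ± 0.0490). WSB1, a substrate receptor of a ubiquitin ligase, had a departure of 1.24. The proteases of the sterol response pathway moved apart. MBTPS1, the site-1 protease, was at 206, 212 and 202 CPM in triple KD, against 97.9, 100.03 and 99.2 CPM in SAFB1 KD, 99.0, 97.9 and 99.1 CPM in SLTM KD and 88.5, 90.6 and 89.1 CPM in control, a departure of 0.92 ± 0.0340. MBTPS2, the site-2 protease, departed by -1.45, with its values below. SAT1, TOMM20, RBPJ, WSB1 and MBTPS1 fall outside the naming rule given in the methods and were chosen after their values were seen, as were PSMB2, UBE2G2, FNDC3A, FAR2 and TMEM222 below.

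**Figure D2:**
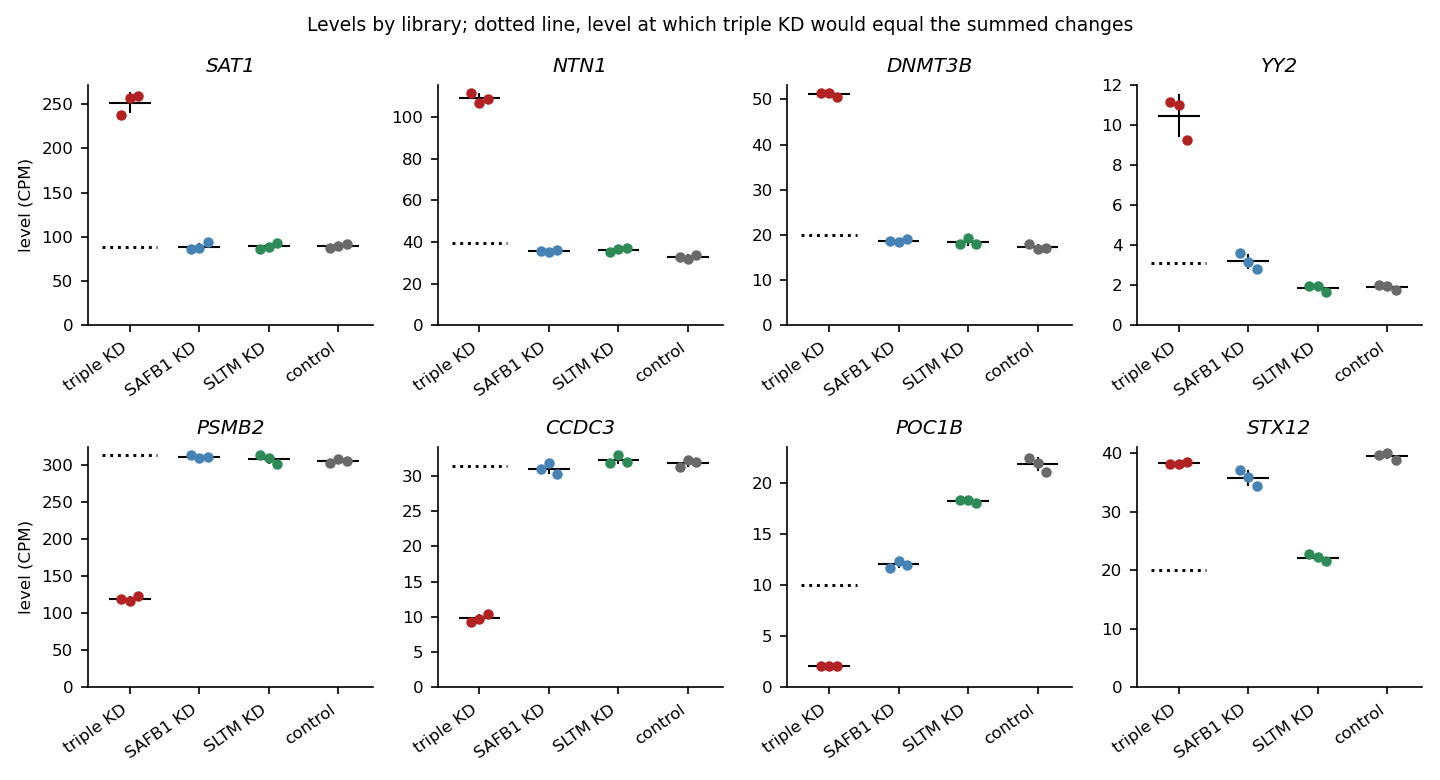
Levels in CPM (y axis, from 0, with its own scale for each gene) in triple KD, SAFB1 KD, SLTM KD and control (x axis); points are single libraries, bars and whiskers the mean and SD of 3, and the dotted line the level at which triple KD would equal the summed changes. SAT1, NTN1, DNMT3B and YY2 lie above that line in triple KD, PSMB2, CCDC3 and POC1B below it, and STX12 sits at 38.3 CPM in triple KD against a summed level of 20.1 CPM.

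Several transcripts near control in both single knockdowns fell in triple KD. PSMB2, a subunit of the proteasome core (chr1:35599541-35641526), was at 119, 116 and 124 CPM in triple KD, against 314, 309 and 309.7 CPM in SAFB1 KD, 314, 309 and 301 CPM in SLTM KD and 302, 307 and 305 CPM in control. The single knockdown libraries overlapped control, and the departure was -1.39 ± 0.0304 (adjusted p = 1.2e-43). UBE2G2, a ubiquitin-conjugating enzyme of endoplasmic reticulum degradation, averaged 104 CPM in triple KD, 254 CPM in SAFB1 KD, 264 CPM in SLTM KD and 276 CPM in control (-1.22 ± 0.0299). CCDC3 (chr10:12896625-13099652), which encodes a secreted coiled-coil protein, was at 9.25, 9.76 and 10.4 CPM in triple KD, against 31.0, 31.8 and 30.2 CPM in SAFB1 KD, 31.8, 32.9 and 32.0 CPM in SLTM KD and 31.2, 32.2 and 32.0 CPM in control (-1.68 ± 0.0588, adjusted p = 5.5e-33). PDE9A, a cyclic GMP phosphodiesterase, averaged 9.39 CPM in triple KD, 29.5 CPM in SAFB1 KD, 27.7 CPM in SLTM KD and 28.6 CPM in control (-1.60 ± 0.0612). CDH4, a cadherin, averaged 6.05 CPM in triple KD, 20.1 CPM in SAFB1 KD, 17.1 CPM in SLTM KD and 19.6 CPM in control (-1.54 ± 0.0704). In all of these genes the triple KD libraries were the 3 lowest of the 12. The genes were chosen by low departures in these same libraries, so this describes them and is no separate support.

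Other genes among the lowest were CEACAM19 (-2.08), a member of the carcinoembryonic antigen family, CCDC102B (-1.89), CFAP45 (-1.86), a protein of ciliary axonemes, SEMA5B (-1.73), a semaphorin, and CHST9 (-1.46), a sulfotransferase. Some genes were lowered by both single knockdowns and lowered further than their sum in triple KD. POC1B, a centriole gene (chr12:89419718-89526047), was at 2.12, 2.12 and 2.10 CPM in triple KD, against 11.7, 12.4 and 12.02 CPM in SAFB1 KD, 18.4, 18.3 and 18.02 CPM in SLTM KD and 22.4, 22.0 and 21.1 CPM in control. The groups did not overlap, the sum would put triple KD at 10.1 CPM, and the departure was -2.25 ± 0.0870 (adjusted p = 8.12e-31). KCNAB2, a potassium channel subunit, averaged 4.87 CPM in triple KD, 14.4 CPM in SAFB1 KD, 15.2 CPM in SLTM KD and 16.8 CPM in control (-1.41 ± 0.0805). FAR2, a fatty acyl-CoA reductase, departed by -1.35 and TMEM222 by -1.24. CFAP45 averaged 0.111 CPM in triple KD, 0.707 CPM in SAFB1 KD, 0.978 CPM in SLTM KD and 1.69 CPM in control. When its changes were summed in CPM and not in log2 the direction turned and the departure was not called (0.13 in units of the gene's mean level, adjusted p = 0.686).

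**Figure D3:**
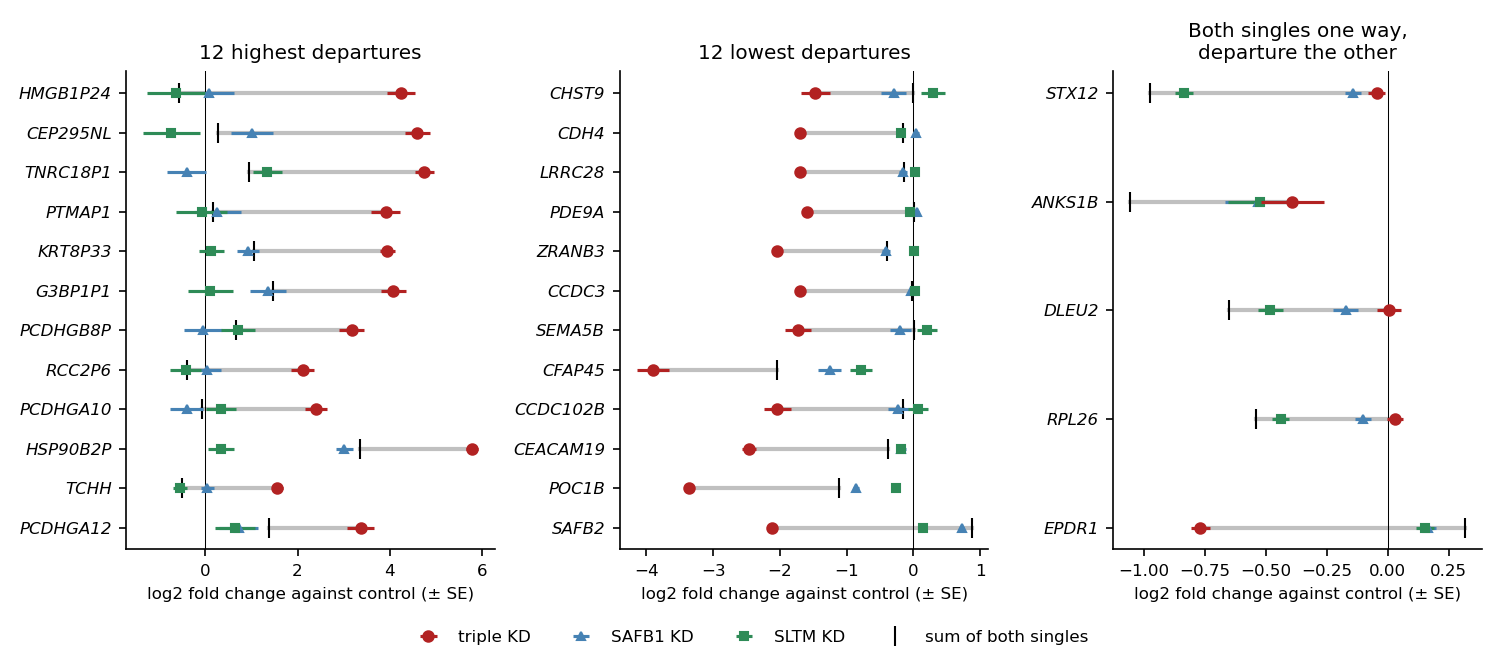
Log2 fold change against control (x axis, ± SE) in triple KD (circles), SAFB1 KD (triangles) and SLTM KD (squares), with the sum of both singles as a black tick and the departure as a grey bar, for the 12 highest and 12 lowest departures by the naming rule and for genes that both single knockdowns moved in the same direction and whose departure ran the other way. In SAFB2 the circle lies at -2.12 and the tick at 0.87; in STX12 the circle lies at -0.04 and the tick at -0.97.

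Since the SAFB2 siRNA was given only in triple KD, 3′ UTR matches to its seed were counted and set beside the departures. Among 12350 genes that averaged 1 CPM or more in a group and had a 3′ UTR of at least 50 bases, 1343 (10.9%) held the 7 bases ATGGATA, which is the sense of the SAFB2 seed, on the transcript strand. Among these, 36.1% were called lower and 14.7% higher, with a median departure of -0.07, while among the 11007 without the match 21.5% were called lower and 17.4% higher, with a median of -0.01. For the seed of the SAFB siRNA, given in SAFB1 KD as well, 27.8% with a match and 22.0% without were called lower, with medians of -0.02 and -0.02. For that of the SLTM siRNA the shares were 25.8% and 23.0%, with medians of -0.01 and -0.02. Genes with a match had longer 3′ UTRs (for SAFB2 a median of 3564 bases with and 1253 without), and the part of the match in a departure was not tested. Of the 16 genes over 2-fold lower that had such a 3′ UTR, 5 held the SAFB2 match. They are shown with RB1, the retinoblastoma gene, as examples of low departures with a match among the 485 called lower. Capitals mark the match.
CCDC3, chr10:12898270-12898295, minus strand: gtagagtctaaATGGATAaaatgcaa
ZRANB3, chr2:135197240-135197265, minus strand: gatacagaatcATGGATAtcaaacat
MBTPS2, chrX:21884757-21884782, plus strand: aatgcagttgaATGGATAatgattag
PSMB2, chr1:35603137-35603162, minus strand: taaaggtgactATGGATAtaattgag
FNDC3A, chr13:49207686-49207711, plus strand: aacaatttagaATGGATAttttgacg
RB1, chr13:48480342-48480367, plus strand: tgctgtgctttATGGATAgtaagaat
FNDC3A and RB1 each held a further match. RB1, a host of transposable elements named by the study, was at 55.2, 54.1 and 54.0 CPM in triple KD, against 127, 126 and 118 CPM in SAFB1 KD, 140.1, 144 and 132 CPM in SLTM KD and 146, 147 and 144 CPM in control (-1.12 ± 0.0385). SAT1, NTN1, DNMT3B, POC1B, PDE9A and UBE2G2 held no match.

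Of the 12 highest departures, 7 were processed pseudogenes that lay in a host intron on the same strand, a class that made up 2.83% of the genes tested. The naming rule asked for 1 CPM in a group, and 10 of the 12 reached it in triple KD alone, where they were high, so this count describes the named genes and is no support for the class. The 7 were HMGB1P24 in ACACA (4.82), TNRC18P1 in TBC1D9 (3.82), PTMAP1 in ATAT1 (3.73), KRT8P33 in CEP120 (2.90), G3BP1P1 in ZRANB3 (2.61), RCC2P6 in ASRGL1 (2.51) and HSP90B2P, a copy of the chaperone gene HSP90B1, in LRRC28 (2.44). CEP295NL, a coding gene in an intron of TIMP2, departed by 4.33. KRT8P33 was at 4.27, 4.09 and 4.18 CPM in triple KD, against 0.506, 0.505 and 0.514 CPM in SAFB1 KD, 0.289, 0.285 and 0.309 CPM in SLTM KD and 0.319, 0.282 and 0.212 CPM in control (departure 2.90 ± 0.325, adjusted p = 7.48e-11). TNRC18P1 was at 3.71, 3.68 and 4.18 CPM in triple KD, against 0.0920, 0.163 and 0.0532 CPM in SAFB1 KD, 0.257, 0.402 and 0.430 CPM in SLTM KD and 0.0958, 0.161 and 0.159 CPM in control (3.82 ± 0.485). HSP90B2P was raised by SAFB1 KD already, at 14.5, 14.3 and 14.5 CPM in triple KD, against 2.36, 1.62 and 2.38 CPM in SAFB1 KD, 0.369, 0.352 and 0.258 CPM in SLTM KD and 0.319, 0.242 and 0.225 CPM in control. The sum would put it at 2.64 CPM, and the departure was 2.44 ± 0.319 (adjusted p = 7.43e-09). SEC14L1P1, a pseudogene in ALKBH3 raised by both single knockdowns, averaged 7.93 CPM in triple KD, 1.56 CPM in SAFB1 KD, 0.724 CPM in SLTM KD and 0.452 CPM in control (1.65 ± 0.238). Counts hold only uniquely placed reads, and reads shared by a copy and its parent are uncertain.

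As a class, processed pseudogenes on the strand of their host had 72 genes called higher and 7 lower of 756 tested (9.52% and 0.926%), beside 9.48% and 11.9% of all genes tested, so the share called higher was that of all genes. For pseudogenes nested on the opposite strand alone the counts were 14 and 4 of 484 (2.89% and 0.826%), and for those not nested 38 and 14 of 1198 (3.17% and 1.17%). The median departures over all tested members were 0.52 on the strand of the host, 0.31 on the opposite strand and 0.27 for those not nested, beside 0.00229 for all genes. Most were barely detected. Over those with a mean of at least 0.1 CPM over all libraries, a floor that high triple KD libraries alone can carry a gene past, the medians were 0.48 on the strand of the host (n = 285), 0.26 on the opposite strand (n = 184) and 0.19 for those not nested (n = 450), beside -0.01 for all 19511 genes at that level. Hosts went the other way. Of the 66 hosts of a same-strand processed pseudogene called higher, 35 were called lower and 6 higher (53.03% and 9.09%), with a median departure of -0.18. The 547 hosts of the other same-strand pseudogenes had 107 lower and 82 higher (19.6% and 15.0%) and a median of -0.04. The median level was 39.6 CPM for the 66 hosts and 21.2 CPM for the 547, and calls rise with level. The hosts were also grouped by calls of the same contrast, and the difference between them was not tested. The hosts of the named pseudogenes differed among themselves: LRRC28 (-1.57), ZRANB3 (-1.64), ASRGL1 (-0.41), ATAT1 (-0.34) and ALKBH3 (-0.26) were called lower, ACACA (-0.04, adjusted p = 0.506) and TBC1D9 (0.07, adjusted p = 0.376) were not called, and CEP120 (-0.13) lost its call in most alternatives.

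LRRC28 (chr15:99251362-99390729) was at 4.06, 4.32 and 4.15 CPM in triple KD, against 12.4, 13.0 and 11.2 CPM in SAFB1 KD, 13.5, 14.6 and 13.4 CPM in SLTM KD and 13.8, 13.6 and 13.5 CPM in control. SAFB1 KD, which raised HSP90B2P by 3.01 on the log2 scale, changed LRRC28 by -0.16 (adjusted p = 0.0501), and triple KD changed it by -1.70. ZRANB3, a DNA-annealing helicase (chr2:135136916-135531218), was at 3.43, 3.28 and 3.49 CPM in triple KD, against 10.5, 10.4 and 10.7 CPM in SAFB1 KD, 14.6, 13.4 and 14.2 CPM in SLTM KD and 13.1, 13.6 and 15.1 CPM in control. Among pairs of a retrogene and its host, YY2, a zinc finger gene inside MBTPS2 (chrX:21855987-21858740), was at 11.2, 11.01 and 9.26 CPM in triple KD, against 3.602, 3.16 and 2.84 CPM in SAFB1 KD, 1.94, 1.94 and 1.67 CPM in SLTM KD and 1.995, 1.96 and 1.77 CPM in control (1.75 ± 0.150, adjusted p = 6.72e-15). MBTPS2 was at 22.2, 22.8 and 22.4 CPM in triple KD, against 64.3, 66.2 and 65.0 CPM in SAFB1 KD, 69.6, 73.5 and 66.2 CPM in SLTM KD and 72.3, 75.9 and 74.5 CPM in control (-1.45 ± 0.0461, adjusted p = 3.85e-35). Of 5 retrogene hosts, 4 were called lower (POC1B, MBTPS2, KYAT3 and HM13) and ALG11 higher (0.24, not called without control replicate 1), and of 4 nested retrogenes YY2 and RBMXL1 (0.46) were called higher. GALNT4, which lies in POC1B, had 0.622 CPM in triple KD and 0.360 CPM in control and was not called (0.72). Of 7 hosts of transposable elements, RB1, HIBADH (-0.76), LONRF3 (-0.55) and CENPQ (-0.33) were lower, RAD54L2 (0.73) was higher, and DTL and FNTA were not called. The study names MBTPS2, POC1B and the hosts of transposable elements from such samples, so their directions are not independent evidence.

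**Figure D4:**
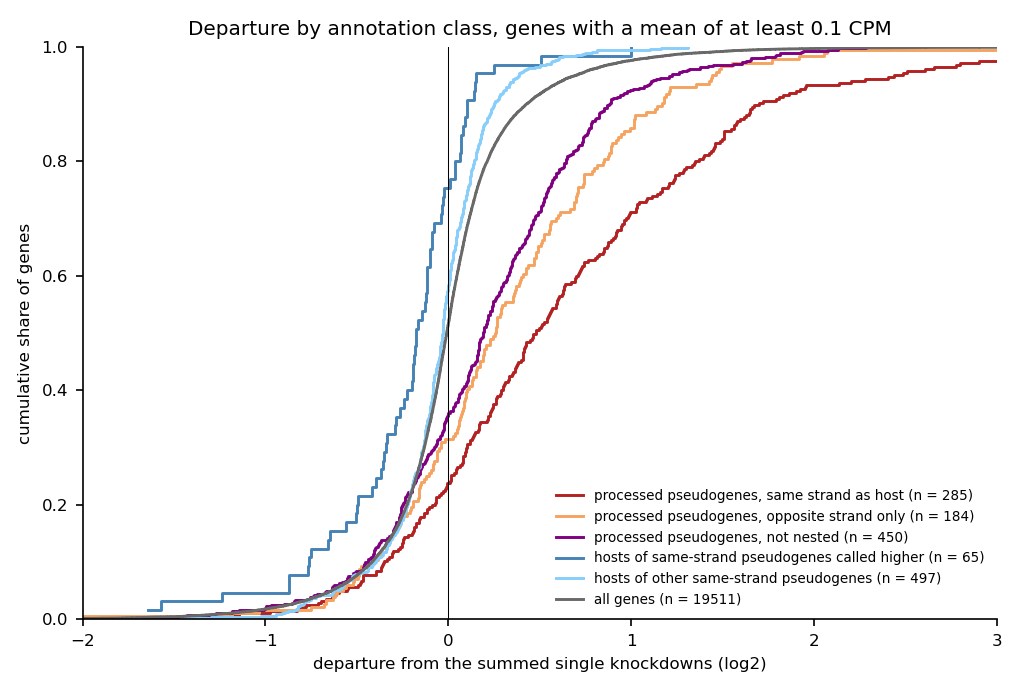
Cumulative share of genes (y axis) with a departure up to the value on the x axis (log2, shown from -2 to 3), for genes averaging 0.1 CPM or more over the 12 libraries. Processed pseudogenes on the strand of their host run furthest to the right (median 0.48), and hosts of those called higher furthest to the left.

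The windows of 200 bases richest in GAAGAA, a purine-rich hexamer of the kind that SAFB proteins bind, are printed for HSP90B2P and G3BP1P1, which have high departures and many matches. They are on the transcript strand, and capitals mark GAAGAA, overlapping matches included.
HSP90B2P, chr15:99258436-99258635, plus strand: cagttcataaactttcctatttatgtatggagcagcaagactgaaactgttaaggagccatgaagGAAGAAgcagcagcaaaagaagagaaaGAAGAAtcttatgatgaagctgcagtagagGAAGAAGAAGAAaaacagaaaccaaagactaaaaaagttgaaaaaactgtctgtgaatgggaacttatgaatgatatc
G3BP1P1, chr2:135511340-135511539, minus strand: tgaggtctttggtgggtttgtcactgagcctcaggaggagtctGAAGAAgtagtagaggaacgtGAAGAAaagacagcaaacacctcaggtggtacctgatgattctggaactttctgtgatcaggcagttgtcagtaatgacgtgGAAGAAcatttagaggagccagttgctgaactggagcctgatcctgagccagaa
HSP90B2P held 12 matches in 2384 bases and none on the other strand, and G3BP1P1 held 7 in 1398 bases and 1 on the other strand. Of the 2438 processed pseudogenes tested, 60.3% held GAAGAA on the transcript strand and 22.4% its reverse complement, and of 2097 windows of this length 61.0% held it. Only 10.8% held 3 or more, so the printed windows, with 5 and 3, are not typical. That share was 11.4% for same-strand pseudogenes called higher and 9.06% for the others on the strand of their host. It was 11.9% for those on the opposite strand and 11.3% for those not nested. The share of pseudogenes with any GAAGAA was 70.8% among the 72 same-strand pseudogenes called higher and 55.1% among the 684 others on the strand of their host. Those called higher were longer (medians of 1018 and 614 bases), so the densities, 1.49 and 0.893 matches per kb, are the closer comparison. The density was 1.46 per kb for pseudogenes nested only on the opposite strand and 1.25 per kb for those not nested. These are whole classes, not split by call. The part of the motif in a departure was not tested.

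In a smaller set of genes the single knockdowns changed a transcript that triple KD left near control. STX12, a syntaxin of endosomal membrane fusion (chr1:27773219-27824443), was at 38.2, 38.2 and 38.6 CPM in triple KD, against 37.1, 36.0 and 34.4 CPM in SAFB1 KD, 22.7, 22.3 and 21.6 CPM in SLTM KD and 39.7, 39.97 and 38.9 CPM in control. The SLTM KD libraries stood apart from all others, the sum would put triple KD at 20.1 CPM, and the departure was 0.93 ± 0.0507 (adjusted p = 1.87e-23). The 3′ UTR of STX12 held 1 match each to the SLTM and SAFB siRNA seeds. Both siRNAs were also in triple KD, beside the SAFB2 siRNA, and the part of the matches was not tested. RPL26, a protein of the large ribosomal subunit, was at 112, 107 and 120.5 CPM in triple KD, against 103, 99.6 and 107 CPM in SAFB1 KD, 82.7, 87.0 and 75.6 CPM in SLTM KD and 108, 107 and 117 CPM in control (0.57 ± 0.0483, adjusted p = 4.44e-15). The noncoding DLEU2 (0.66) was also lowered by both single knockdowns and near control in triple KD. ANKS1B, a scaffold gene of synapses, was lower in all 3 knockdowns, with log2 fold changes of -0.39 in triple KD, -0.53 in SAFB1 KD and -0.52 in SLTM KD, so triple KD fell short of the sum (0.66, adjusted p = 0.00777). EPDR1, an ependymin-related gene, had the reverse. It was at 19.2, 19.6 and 18.9 CPM in triple KD, against 36.5, 38.1 and 35.5 CPM in SAFB1 KD, 36.5, 37.2 and 35.6 CPM in SLTM KD and 32.9, 33.4 and 32.0 CPM in control (-1.09 ± 0.0525), and its 3′ UTR held 2 SAFB2 seed matches. SAFB2, raised by both single knockdowns and targeted in triple KD, is the remaining gene that the naming rule gave here. RHOT1, which tethers mitochondria to motors, showed the SLTM effect deepened, at 14.2, 14.8 and 14.3 CPM in triple KD, against 47.3, 51.0 and 49.8 CPM in SAFB1 KD, 23.1, 23.3 and 23.1 CPM in SLTM KD and 46.8, 47.9 and 47.6 CPM in control (-0.74 ± 0.0536).

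Clustered gamma protocadherins, adhesion proteins whose variable exons are strung along chromosome 5, supplied 3 of the 12 highest departures, PCDHGB8P (2.52), PCDHGA10 (2.46) and PCDHGA12 (2.003). The family was counted after these values were seen. Of 24 members tested, 11 were called higher and PCDHGB5 lower (-0.73), beside 9.48% higher and 11.9% lower over all genes tested. Their median departure was 0.93, and most averaged under 1 CPM in control. PCDHGA8, called higher, averaged 0.0686 CPM in triple KD, 0.0397 CPM in SAFB1 KD, 0 CPM in SLTM KD and 0.0541 CPM in control. PCDHGA10 averaged 1.30 CPM in triple KD, 0.183 CPM in SAFB1 KD, 0.313 CPM in SLTM KD and 0.253 CPM in control. The members share downstream exons and lie within one another's spans, so assignment of reads among them is uncertain. TCHH, the hair follicle protein trichohyalin, averaged 4.34 CPM in triple KD, 1.52 CPM in SAFB1 KD, 1.005 CPM in SLTM KD and 1.48 CPM in control (2.07 ± 0.194).

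Gene lists were read for departure against the background of 9.48% higher and 11.9% lower, and against the higher call rates of well expressed genes given above. Among the 16028 protein-coding genes tested, 13.6% were called higher and 18.3% lower. Of 13 mitochondrially encoded genes, 9 were higher and MT-CO2 lower (-0.09), with a median departure of 0.26 beside 0.00229 over all genes. MT-ND3, a subunit of complex I, was at 1067, 1123 and 1143 CPM in triple KD, against 761, 742 and 777 CPM in SAFB1 KD, 751, 751 and 735 CPM in SLTM KD and 736, 774 and 792 CPM in control (0.59 ± 0.0296). MT-ATP8, of the ATP synthase, departed by 0.77 and MT-CO1, of complex IV, by -0.10 without a call. MT-CO2 lost its call in 9 alternatives and MT-CO1 gained one in 5, while 7 to 10 members were higher under the other scalings, DESeq2 and a replicate block. Mitochondrial genes took 4.11 to 4.51% of counts in triple KD, 3.40 to 3.68% in SAFB1 KD, 3.89 to 4.25% in SLTM KD and 3.31 to 3.61% in control. That share largely restates the level of this list and is no separate measure. Of 38 nuclear genes of complex I, 5 were higher and 5 lower, NDUFB6 by -0.66, but 2 were lower with upper-quartile factors and 10 with a replicate block.

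G2/M genes leaned above the sum, with 13 of 25 higher and 2 lower (median 0.08). BUB3, of the spindle checkpoint, departed by 0.34, TOP2A, which untangles DNA, by 0.24 and UBE2C, of the anaphase-promoting complex pathway, by 0.28. MAD2L1, also of the checkpoint, was lower (-0.46) and held 2 seed matches each for SAFB2 and SAFB, and AURKA was lower too (-0.17). Of 16 genes for HUSH and for methylation of H3K9, by which repeats are silenced, 7 were higher (CBX1 0.17, ATF7IP 0.17) and MPHOSPH8 lower (-0.21), with a median of 0.03. Of 17 factors that restrict L1 elements, 4 were higher, DNMT3B, APOBEC3B (1.08), DNMT3A (0.21) and SAMHD1 (0.16), and RNASEH2C was lower. Of 5 SAFB partner proteins, RBMXL1, RBM12B (0.42) and ZNF638 (0.12) were higher and NCOA5 lower (-0.12), a call lost without control replicate 2 or 3 or triple KD replicate 2. Of 27 hnRNP genes 8 were higher and 3 lower, of 23 cleavage and polyadenylation genes 6 and 2, NUDT21 by 0.26, and of 14 SR and TRA2 genes 2 and 2. Counts were 6 higher and 2 lower of 18 nuclear matrix genes, 5 and 7 of 31 core spliceosome genes, 5 and 7 of 30 genes of G1/S and replication, 6 and 5 of 30 centrosome and cilium genes, and 3 and 6 of 18 genes of mitochondrial transport and fusion. They were 4 and 3 of 20 tissue-regulated splicing factors and 4 and 3 of 13 microRNA pathway genes. Of 9 genes with giant coding exons, 2 were higher and 5 lower (median -0.13), with 3 higher under the other scalings, DESeq2 and a replicate block.

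Chaperones leaned below the sum, and DNA repair had calls in both directions, with more below. Of 20 heat shock chaperones, 11 were lower and 3 higher (median -0.07), with 7 lower under upper-quartile factors. The lower members included DNAJB4 (-0.66), HSPA4L (-0.44) and HSPA8, the constitutive HSP70, at 1524, 1562 and 1574 CPM in triple KD, against 1965, 2014 and 2064 CPM in SAFB1 KD, 1914, 1922 and 1906 CPM in SLTM KD and 1960.0, 2001 and 2022 CPM in control (-0.32 ± 0.0241). Of 30 genes of DNA break repair, 11 were lower, including ZRANB3, the checkpoint kinase ATR (-0.45) and the polymerase POLQ (-0.32), and 6 higher, including RIF1 (0.51) and XRCC4 (0.60). The median was -0.08. In the integrated stress and unfolded protein response, 5 of 22 were higher and 7 lower, and the members diverged: PDIA4, a disulfide isomerase, stood at 364 CPM in triple KD, 211 CPM in SAFB1 KD, 196 CPM in SLTM KD and 175 CPM in control (0.63 ± 0.0315), SEL1L departed by 0.55 and DNAJC3 by 0.49, whereas ATF4, the main transcription factor of the response, departed by -0.38 and DNAJB9 by -0.79. In extracellular matrix and adhesion, 8 of 24 were lower, COL6A1 by -0.21, and 3 higher, including VCAN (0.49) and FN1 (0.40). For sterol and fatty acid synthesis the counts were 4 higher and 8 lower of 29, MSMO1 by -0.63, with a median of 0.00124. The interferon response had 2 higher and 3 lower of 25, STAT2 by -0.43, and p53 targets 5 and 5 of 20.

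**Figure D5:**
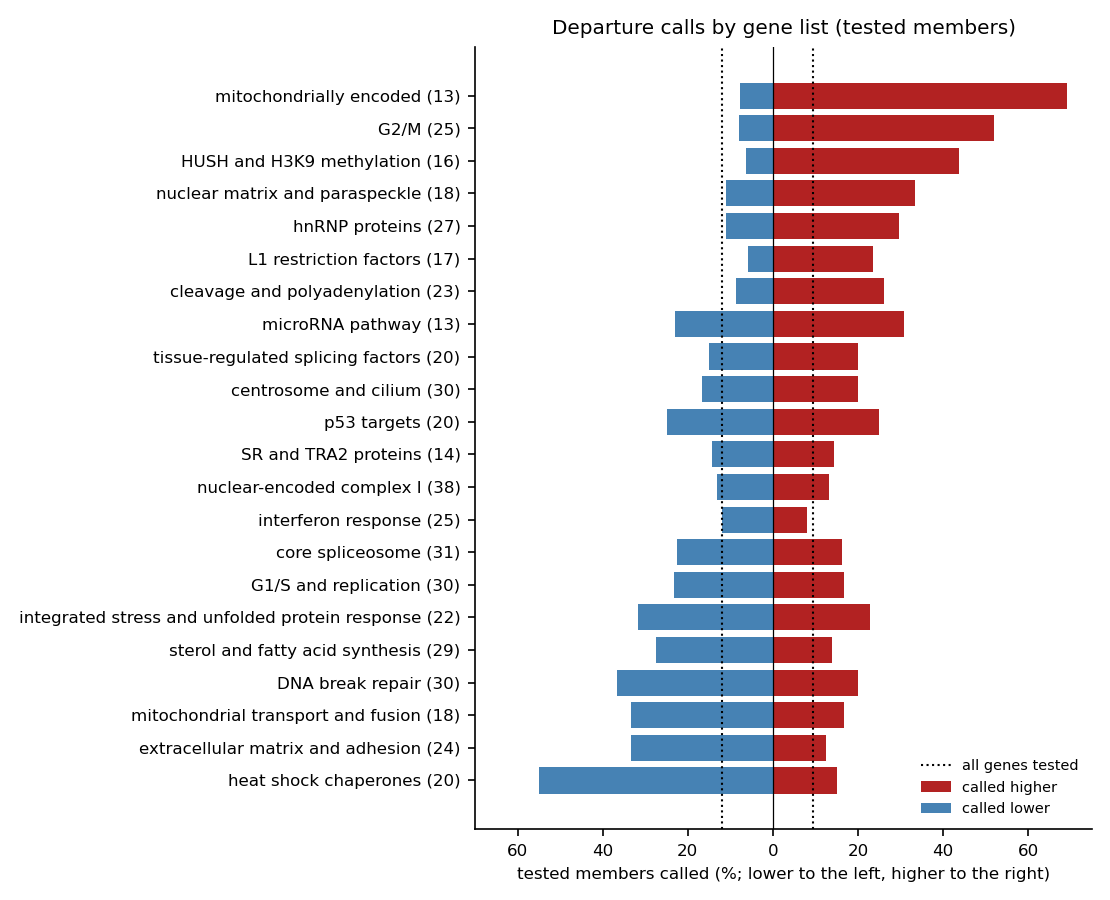
Share of tested members called higher (red, right) and lower (blue, left) than the summed single knockdowns (x axis, percent) for gene lists other than cell type markers with at least 10 tested members (y axis, number tested in brackets); dotted lines mark the shares over all genes tested, 9.48% and 11.9%. Mitochondrially encoded and G2/M genes reach furthest to the right, and heat shock chaperones furthest to the left.

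Markers of the cell line were present throughout. The 12 HEK293 markers summed to 1958 to 1984 CPM in triple KD, 2021 to 2072 CPM in SAFB1 KD, 2050 to 2074 CPM in SLTM KD and 2000 to 2045 CPM in control. Of these, 8 had a lower departure, among them PAX2 (-0.62), CD24 (-0.52) and the neurofilament NEFL (-0.47), and SOX4 a higher one (0.47). Over all genes tested 11.9% were called lower and 9.48% higher. Calls were more frequent in abundant genes, with 48.8% called in either direction at 100 CPM or more. Leukocyte markers summed to at most 0.842 CPM and squamous epithelium markers to at most 0.238 CPM in any library. The 3 fibroblast markers tested summed to 13.8 to 14.6 CPM in triple KD and 13.6 to 15.4 CPM in SAFB1 KD. They summed to 14.3 to 15.2 CPM in SLTM KD and 14.2 to 15.1 CPM in control. Of the colon markers, EPCAM and CDX2 are expressed by the line itself, and LGALS4, VIL1 and CDH17 were near 0. None of the markers of other cell types had a called departure.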

How the data were processed

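Per the labels and the methods, the authors aligned reads to GRCh38 with STAR 2.7.9a and deposited raw counts of uniquely placed reads per gene, reverse-stranded, with replicates kept apart (58780 gene IDs, 99.0% matched to a later GENCODE release, which gave symbols, introns and transcripts). Genes with at least 10 counts over the 12 libraries were tested, 26688 in all. Counts were fitted with edgeR 4.0.16 in R 4.3.3 (TMM factors, a term for group, two-sided quasi-likelihood F tests, Benjamini-Hochberg adjustment over all genes, called at an adjusted p under 0.05). Every adjusted p is from this fit unless another tool is named. The 2-fold test was glmTreat. CPM use TMM-adjusted library sizes, SE comes from the fit, and depth limits genes of low level. Seeds and GAAGAA were searched in Ensembl canonical transcripts.

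Named genes were, among called genes with a symbol and at least 1 CPM in a group, the 12 highest and 12 lowest departures, the 6 largest in each direction relative to both single knockdowns called in the same direction, the siRNA targets, up to 3 members of each of 28 lists by adjusted p, and hosts of named pseudogenes. Further genes were named after their values were seen, among them list members beyond these. The members and lists were chosen with earlier results of these data known. The test was tried on simulated counts. Alternatives were other scalings, filters, DESeq2 1.42.0, limma-voom (limma 3.58.1), a replicate block, a linear sum, a stricter threshold and each library left out.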

Additional observations from a re-analysis of the deposited data

How the results depend on the processing

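The counts of departing genes stayed within 1.5 times their values under every alternative. With 1 library left out, 2310 to 2707 genes were called higher and 2558 to 3077 lower, and the 2-fold counts ran from 16 to 21 and from 16 to 22. The lean towards lower departures was not kept throughout, with 44.3% of calls higher in the fit reported, 49.8% with upper-quartile factors and 50.2% without triple KD replicate 2. DESeq2 called 2362 higher and 2824 lower, and limma-voom 2433 and 3085. With the sum taken in CPM, 2694 were higher and 2970 lower, and 94.5% of the reported calls held. At an adjusted p under 0.01, 1738 were higher and 2347 lower, with 816 beyond the sum, 94 short of it and 235 against it. The class against the sum, 486 genes, ran from 302 to 495 with 1 library left out, lowest without control replicate 1 (302) and control replicate 2 (311). SAFB1 KD against control called 1706 to 2723 genes, lowest without SAFB1 KD replicate 2, in place of 2577. The alternatives for the classes, other than the stricter threshold, and for the single knockdowns, other than the block, were chosen after seeing the data.

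Of 148 named genes with a call, 142 kept it and their direction under all alternatives. CFAP45 turned to 0.13 with the sum in CPM, SRSF5 lost its call without triple KD replicate 3, ALG11 without control replicate 1 and NCOA5 without control replicate 2 or 3 or triple KD replicate 2, and CEP120 and MT-CO2 lost theirs in 12 and 9 settings. SLTM, not called, ran from -0.0139 to 0.12 with 1 library left out and turned to -0.00224 without SLTM KD replicate 1, to -0.0139 without triple KD replicate 3 and to -0.24 with the sum in CPM, where it was called lower (adjusted p = 1.39e-08). A replicate block gave 2841 higher and 3493 lower. Nothing in the labels says that a number marks a shared batch. Of 18 same-numbered pairs, 11 correlated above 0.1 and not all, so the numbers were not taken to pair the libraries. The median correlation was 0.12 for same-numbered and -0.04 for other pairs, and the highest of the other pairs was 0.0957. Of 12 libraries, 10 correlated best with their own number, a hint of shared structure from the data and not the design. Under the block MT-CO1 gained a call. Depth limits the genes below 1 CPM.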
